A study of Mus musculus with 12 samples.

Results

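BV2 cells, an immortalised mouse microglial line, received extracellular vesicles (EVs) from donor BV2 cells for 24 h, and the recipients' RNA was sequenced. The comparison described here sets 3 libraries whose labels name TGFB vesicles (TGFB_EV) against 3 whose labels name control vesicles (control_EV). These are 6 of the 12 libraries of the series; the others received vesicles labelled LPS or IL10. The labels name no dose or duration for the donors' treatment, and the TGFB vesicles are read here as those of donors given TGF-β. All recipients were resting BV2 cells of 1 line, and no group received the cytokine without vesicles, so cytokine carried over with the vesicles and the vesicles themselves cannot be told apart. Rows of the count table entered the comparison where they passed a filter on low counts, which left 10524 of 57010 rows. The labels do not state that replicates are separate cultures. The p-values therefore reflect the spread among these libraries alone, and that spread may be technical.

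Vesicles released by microglia carry RNA, protein and lipids that neighbouring cells can take up. TGF-β binds a pair of receptor serine/threonine kinases, TGFBR1 and TGFBR2, whose SMAD2 and SMAD3 substrates enter the nucleus with SMAD4 and act on target genes, while SMAD7, SKI and SKIL restrain the signal. In brain, TGF-β signalling is known for maintaining the homeostatic state of microglia, marked by genes such as Csf1r, P2ry12 and Tmem119.

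The label of a row often did not name the gene whose reads the row held. Exons of each row were therefore moved along the chromosome by displacements fitted over stretches of neighbouring rows, and a row is given below by its label together with the gene its moved exons overlapped, "the gene met", which is an estimate. Of the tested rows, 82.6% met a protein-coding gene and 13.71% met the gene of their own label. Rows labelled with ribosomal protein genes, read without displacement, had a median of 0.0871 CPM, the usual unit of counts scaled to the library total. The 19 rows whose moved exons met such genes had a median of 1628.5 CPM in a fit that treated these genes as ordinary protein-coding genes. Such a fit still favours coding exons for rows with counts, so the contrast is partly built in. Remarks on gene function below concern the gene met. Several rows can meet different exons of 1 gene, and they then share its transcripts and are not independent measurements. The library kits do not mark strand, so overlapping genes cannot be separated.

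The cells' identity was checked against microglia and macrophage markers. Of 20 such markers, 10 were met by 18 tested rows, among them Csf1r (highest row 281 CPM), Fcgr3 (333 CPM), Itgam (216 CPM), Irf8 (187 CPM) and Spi1 (171 CPM). The other markers met were Ptprc (highest row 167.5 CPM), Itgb2 (78.3 CPM), Trem2 (52.1 CPM), C1qc (48.4 CPM) and Aif1 (14.7 CPM). Cx3cr1, Fcer1g, Tyrobp, Cd68, Adgre1, Lyz2, Laptm5, Mpeg1, C1qa and C1qb were not the gene met of any tested row. No tested row met an astrocyte or fibroblast marker from lists of 10 genes each. The neuron list had 1 tested row, which lay between 0.744 and 1.34 CPM in control_EV and between 0.957 and 1.36 CPM in TGFB_EV. The oligodendrocyte, endothelial and T and B cell lists had 2, 3 and 2 tested rows. Their summed levels lay at 183 to 207, 588 to 628 and 84.4 to 97.4 CPM in control_EV, and at 170 to 196, 555 to 607 and 72.7 to 80.6 CPM in TGFB_EV. The recipients were 1 cell line. Whether these sums stem from the marker genes themselves or from genes that share the same positions was not tested. Library totals were 10497757, 11963204 and 12053680 counts in control_EV and 11515930, 11408979 and 12588588 in TGFB_EV, which did not differ beyond their spread (exact two-sided permutation test, p = 0.7; 0.1 is the smallest p that 3 against 3 allows). At these totals 3 counts correspond to 0.238 to 0.286 CPM, a limit that covers counting error only.

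With all 3 replicates on each side, few rows differed between recipients of TGFB_EV and control_EV, and every one that did was lower in TGFB_EV. At an adjusted p under 0.05 (edgeR quasi-likelihood test, Benjamini-Hochberg), 4 of 10524 rows were called (0.0380%), and 656 rows (6.23%) had an unadjusted p under 0.05, 266 higher and 390 lower. The values of the groups did not overlap in 1148 rows (10.9%), 595 lower and 553 higher in TGFB_EV. The called rows met Ppp3r1, the regulatory B subunit of the calcium-activated phosphatase calcineurin, Rae1, an mRNA export factor of the nuclear pore, and Gigyf1, a partner of the translational repressor 4EHP; the fourth row had no position. The count fell to 1 for counts summed by gene met and to 0 in a fit of all 12 libraries, where 615 rows had an unadjusted p under 0.05. Without a filter on low counts it was 111, of which 15 were higher.

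The row labelled Pno1, which met Ppp3r1 on chromosome 11, had the largest fold change of the 4. Its levels, as CPM scaled by the TMM method, were 10.9, 7.27 and 7.68 in control_EV replicates 1 to 3 and 2.09, 1.2 and 2.32 in TGFB_EV replicates 1 to 3. All 3 TGFB_EV libraries lay below all 3 controls (log2 fold change -2.19, SE 0.28, edgeR adjusted p = 0.00952; means 8.61 ± 1.98 and 1.87 ± 0.589 CPM, SD, n = 3). The row labelled Pck1, which met Rae1 on chromosome 2, read 32.6, 25.9 and 29.9 CPM in control_EV and 16, 12.2 and 16.8 CPM in TGFB_EV. Here too no TGFB_EV value reached a control value (log2 fold change -0.97, SE 0.14, edgeR adjusted p = 0.0270).

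The row labelled Gm17112 read 93.9, 79.3 and 81.3 CPM in control_EV and 46.0, 47.9 and 53.0 CPM in TGFB_EV. The groups lay far apart relative to their spread (log2 fold change -0.79, SE 0.09, edgeR adjusted p = 0.0051). This row lies where the fitted displacement changes, and its gene met is uncertain: moved by -14.6 kb it overlapped exons of Gigyf1 in 239 bp, where 1 other tested row, labelled Gnb2, was at a log2 fold change of 0.02 (edgeR adjusted p = 0.96), and moved by 28.9 kb, the displacement of the neighbouring stretch, it overlapped Actl6b, an actin-like chromatin remodelling subunit, in 161 bp. The row ENSMUSG00000120226 had no position in the annotation used and so no gene met. It read 112, 95.1 and 102 CPM in control_EV and 61.5, 61.6 and 76.6 CPM in TGFB_EV (log2 fold change -0.63, SE 0.10, edgeR adjusted p = 0.0398). Its highest TGFB_EV value, in replicate 3, remained below the lowest control.

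**Figure D1:**
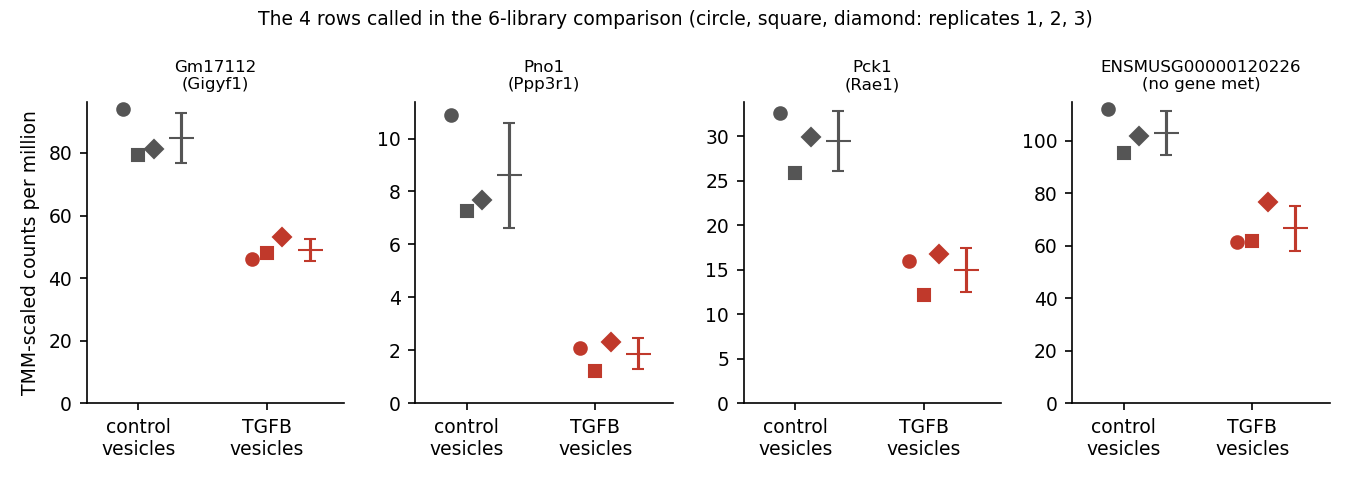
TMM-scaled CPM (y axes from 0, one scale per panel) of the 4 called rows in each library, with the gene met in brackets. Circles, squares and diamonds are replicates 1, 2 and 3, and bars at the right of each group are mean ± SD (n = 3); in each panel all TGFB_EV values lie below all control_EV values.

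The calls rested on few libraries. The count was 0 without control_EV replicate 1 or without TGFB_EV replicate 1, 1 without control_EV replicate 3, 2 without control_EV replicate 2 or TGFB_EV replicate 2, and 419 without TGFB_EV replicate 3. In the other recipients of the series, on a scale common to all 12 libraries, the Pno1 row (Ppp3r1) lay at 13, 8.18 and 8.52 CPM in the LPS group and at 1.86, 4.26 and 6.65 CPM in the IL-10 group. The Pck1 row (Rae1) lay at 33.7, 26.4 and 24.2 CPM and at 13.1, 24.5 and 19.8 CPM in those groups. In both rows every IL-10 library thus lay below the lowest control value given above, which is on the scale of the 6 libraries. The IL-10 group shares the same controls. The Gm17112 row lay at 92.3, 76.7 and 61.9 CPM in the LPS group and at 45.9, 72.0 and 81.6 CPM in the IL-10 group. For ENSMUSG00000120226 these values were 115.1, 84.7 and 89.4 CPM and 62.0, 87.4 and 97.7 CPM.

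A feature shared by many of the rows with the smallest p was the piece of the gene they held. The moved exons of the Pno1 row overlapped 132 bp of exon 1 of Ppp3r1, with a GC content (share of G and C bases) of 75%, and those of the Pck1 row overlapped 260 bp of exon 1 of Rae1, also at 75%. Of the 16 uncalled rows with the next smallest p and a mean of at least 5 CPM, all 16 had a negative log2 fold change (-1.69 to -0.434, edgeR adjusted p 0.0655 to 0.258). In 11 of them the overlap held the first exon of the transcript met, and in 8 it held a first exon at a GC content of at least 65%. Of all rows with a GC value tested without TGFB_EV replicate 3, 27.8% held a first exon and 5.76% had at least 65% GC. Among the 11, the Cd2bp2 row met the only exon of a transcript. The Scx, Ptp4a2 and Cd2bp2 rows, all among the 16, lie where the fitted displacement changes, so what they met is uncertain. The 65% limit was set after the values were seen. The 16 rows were chosen by their p, so their direction is a description.

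The contrast is shown by coding bases of the gene Npepps, which encodes the puromycin-sensitive aminopeptidase, and of Yy1, which encodes a zinc finger transcription factor. The sequences are from GENCODE transcripts on GRCm38, are written 5′ to 3′ on the coding strand, and have runs of at least 5 G or C bases in capitals. The first is from exon 1 of Yy1 (chr12:108793773-108793922, plus strand, 76.0% GC), met by the row labelled Slc25a29. The second is from exon 1 of Npepps (chr11:97280366-97280458, minus strand, 74.2% GC), met by the row labelled Socs7. The third is from exon 17 of 23 of Npepps (chr11:97223021-97223170, minus strand, 46.0% GC), met by the row labelled Gpr179.
Yy1 exon 1: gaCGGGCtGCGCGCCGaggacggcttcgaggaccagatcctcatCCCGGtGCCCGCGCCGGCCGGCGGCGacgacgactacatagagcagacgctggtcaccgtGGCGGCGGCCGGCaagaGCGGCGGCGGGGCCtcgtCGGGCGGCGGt
Npepps exon 1: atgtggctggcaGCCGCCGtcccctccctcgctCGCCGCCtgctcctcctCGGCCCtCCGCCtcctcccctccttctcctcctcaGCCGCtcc
Npepps exon 17: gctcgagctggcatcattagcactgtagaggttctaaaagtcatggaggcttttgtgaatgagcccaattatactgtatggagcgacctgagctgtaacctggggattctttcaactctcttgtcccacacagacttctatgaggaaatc
Capitals fill 75 of 150 bases in the Yy1 stretch and 30 of 93 in the first Npepps stretch, and the third has none.

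Rows that held other exons of Npepps and Yy1 did not show the low values of their first-exon rows. The Socs7 row, holding exon 1 of Npepps, read 14.1, 11.9 and 12.6 CPM in control_EV and 5.66, 4.56 and 8.48 CPM in TGFB_EV (log2 fold change -1.04, SE 0.21). The Gpr179 row, holding exons 6 to 17 of Npepps, read 264.9, 278.6 and 254.8 CPM in control_EV and 244.6, 227.8 and 252.5 CPM in TGFB_EV (log2 fold change -0.14, SE 0.06), and the Mrpl45 row, holding exons 22 and 23, had a log2 fold change of 0.01 (SE 0.07). For Yy1, the Slc25a29 row read 33.8, 22.6 and 24.6 CPM in control_EV and 11.9, 12 and 16.8 CPM in TGFB_EV (log2 fold change -0.99, SE 0.17). The Slc25a47 row, holding part of exon 5 of Yy1, read 47.1, 42.8 and 48.9 CPM in control_EV and 40.3, 45.0 and 40.3 CPM in TGFB_EV (log2 fold change -0.14, SE 0.09). None of these rows was called with all 6 libraries.

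Further genes are given for the same contrast, chosen after their values were seen. For Ap3d1, the δ subunit of the AP-3 complex that sorts cargo to lysosomes, the Lmnb2 row, holding exon 1, read 48.4, 40.1 and 38.9 CPM in control_EV and 23.9, 22.8 and 29.4 CPM in TGFB_EV (log2 fold change -0.74, SE 0.12). The Tmprss9 row, holding exons of Ap3d1 between 2 and 31, read 162.7, 184.0 and 177.7 CPM in control_EV and 183.5, 171.3 and 181.7 CPM in TGFB_EV (log2 fold change 0.03, SE 0.07). Its groups overlapped. For Rnf10, which encodes a RING finger protein, the Unc119b row held exon 1 (log2 fold change -1.02, SE 0.25) and the Acads row held exons 6 to 10 (-0.01, SE 0.06). For Prpsap1, an inhibitory partner of phosphoribosyl pyrophosphate synthetase, both rows held the first exon of a transcript. The Rhbdf2 row held exon 1 of a transcript of 10 exons at 72.8% GC (-1.42, SE 0.35), and the Aanat row exon 1 of another transcript of 4 exons at 49.6% GC (0.06, SE 0.09). The Gm11594 row likewise held exon 1 of an Npepps transcript of 3 exons, at 53.7% GC and a log2 fold change of -0.06 (SE 0.09).

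The arrangement did not hold for every gene. The called Gm17112 row, read as Gigyf1, held exons 18 to 24 at 35.6% GC and was at -0.79, while the Gnb2 row, holding exons 1 and 2 of a Gigyf1 transcript, was at 0.02 (SE 0.05). For Ptprs, a receptor tyrosine phosphatase, the Lrg1 row, holding exons 3 to 5 of a transcript of 7 exons, was at -0.60 (SE 0.13), and the Plin4, Plin5 and Sema6b rows were at 0.05, 0.05 and -0.07.

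**Figure D2:**
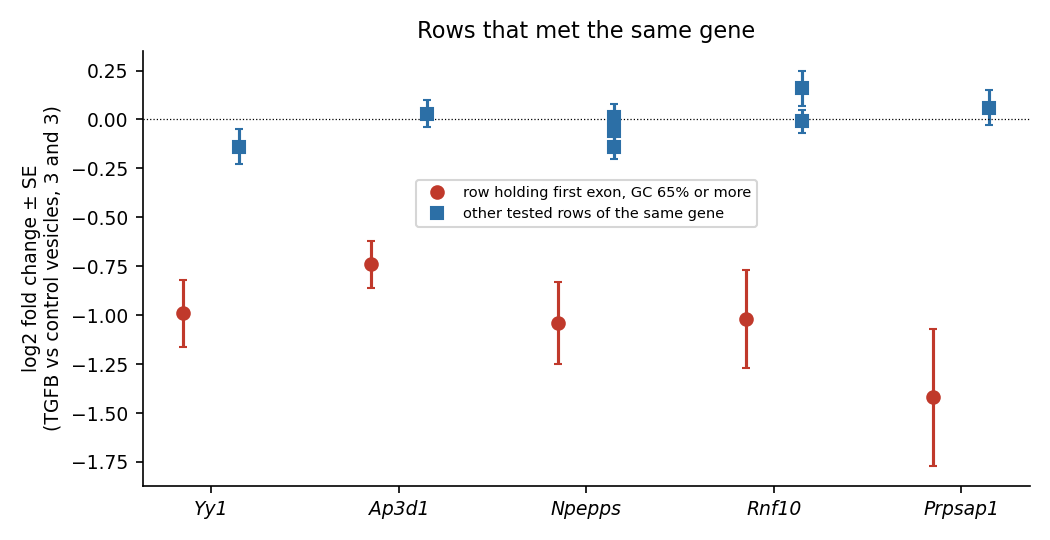
Log2 fold change ± SE (y axis, TGFB_EV against control_EV, 3 libraries each) of the tested rows that met each of 5 genes (x axis). Red circles are rows holding a first exon at 65% GC or more, at -0.74 to -1.42, and blue squares are the other tested rows of the same gene, at -0.14 to 0.16.

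Across the table, 84 genes had both a row at 65% GC or more that held a first exon and a row under 60% GC that did not. The median log2 fold change was -0.10 over their first-exon rows and 0.01 over their later-exon rows, and the first-exon row lay lower in 62 of the 84 genes. By GC content, the median log2 fold change over rows of at least 5 CPM was 0.02 under 50% GC (3345 rows), -0.03 at 65 to 70% (172 rows), -0.09 at 70 to 75% (80 rows) and -0.19 at 75% and over (48 rows, 45 of them holding a first exon). All 3 TGFB_EV libraries were below the control mean in the last bin, with median log2 differences of -0.22, -0.27 and -0.13, against 0.08, -0.02 and -0.06 in the control libraries. Control_EV replicate 1 was thus the highest of the 6 libraries and TGFB_EV replicate 2 the lowest. What part GC content or the place in the transcript has in the 4 calls was not tested.

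**Figure D3:**
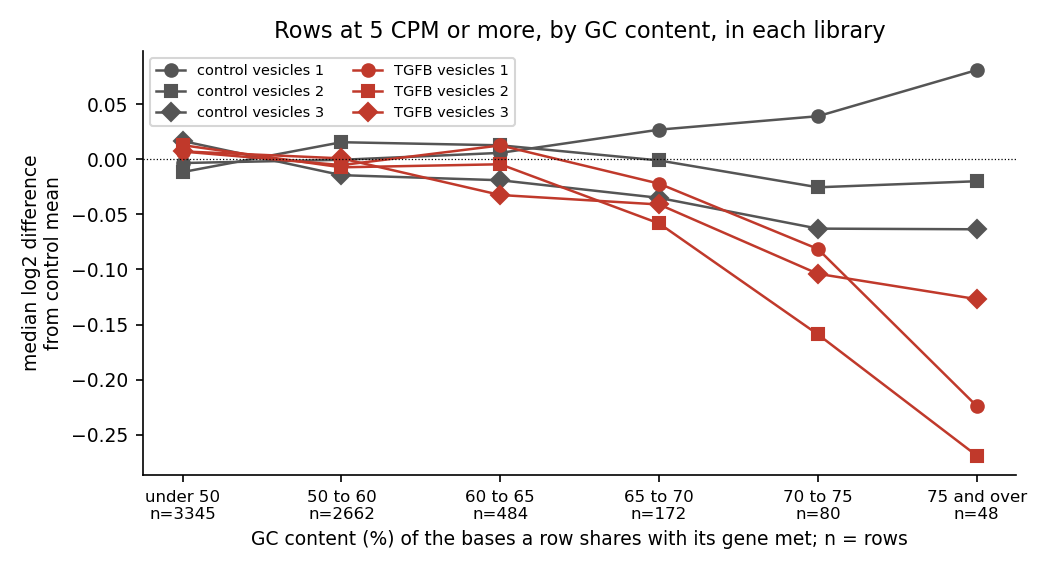
Median log2 difference from the control mean (y axis) of rows of at least 5 CPM, by the GC content of the bases shared with the gene met (x axis, n rows per bin), 1 line per library (grey control_EV, red TGFB_EV). Lines stay within about 0.03 of 0 up to 65% GC and spread above it, with the TGFB_EV lines lowest in the bin of 75% and over.

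TGFB_EV replicate 3 lay nearer to the controls than to its own group. Chi-square per degree of freedom, a measure of how far a pair of libraries differ beyond counting noise, was 4.42 between TGFB_EV replicates 1 and 2, but 10.1 and 17.3 between replicate 3 and these. Control_EV replicate 3 differed from TGFB_EV replicates 1 and 2 by 5.71 and 9.33, and the other controls differed from them by 8.93 to 17.8. TGFB_EV replicate 3 differed from the controls by 4.49, 4.02 and 5.70, and the controls differed among themselves by 4.62 to 5.74. Pearson's r of log2 CPM over 7470 rows was 0.99369 between replicates 1 and 2, 0.99058 and 0.98704 between replicate 3 and these, and 0.99313 to 0.99404 between replicate 3 and the controls. Spearman's rho gave 0.99297, then 0.98958 and 0.98567, then 0.99211 to 0.9932. Over the 200 rows with the smallest p in the fit without it, replicate 3 moved 0.125 times as far from control as the other replicates did, on the same side in 87 rows. Replicates 1 and 2, treated the same way, moved 0.866 and 0.959 times as far, on the same side in 186 and 180 rows. Nothing in the labels sets replicate 3 apart, so it was kept in every test above. The results that follow leave it out and give its values beside part of the rows. Where only a fold change without it is given, replicate 3 can lie past the controls on the other side. Because it was left out with its values known, the calls describe replicates 1 and 2 against the 3 controls.

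Without replicate 3, edgeR called 312 of 10768 rows lower (2.90%) and 107 higher (0.994%). In replicate 3 itself, the 312 lower rows had a median log2 difference from the control mean of 0.02, and the 107 higher rows -0.02, whereas replicates 1 and 2 stood at -0.37 and -0.53 for the lower and at 0.29 and 0.35 for the higher rows. Control_EV replicates 1 to 3 stood at 0.04, 0.06 and -0.105 for the lower and at -0.03, -0.02 and 0.05 for the higher rows. The libraries of the IL-10 group, which did not enter this fit, differed among themselves over the same rows. IL-10 replicates 1 and 3 stood at -0.17 and -0.21 for the lower and 0.09 and 0.18 for the higher rows, and replicate 2 at 0.19 and -0.24. Those of the LPS group lay between -0.06 and 0.08 for the lower and between -0.11 and 0.02 for the higher rows. First exons were held by 41.1% of the lower rows with a GC value, by 26.0% of the higher rows and by 27.8% of all rows tested; a GC content of at least 65% was found in 17.0%, 3.12% and 5.76%.

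**Figure D4:**
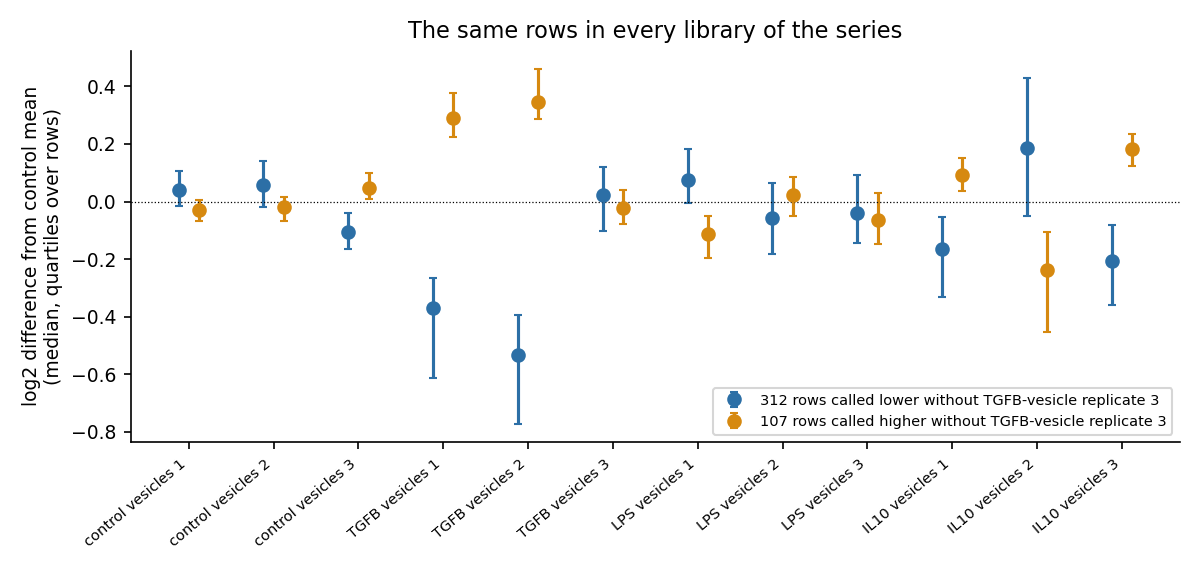
Median log2 difference from the control mean (points; bars are quartiles over rows) in each of the 12 libraries (x axis) for the 312 rows called lower (blue) and 107 called higher (orange) without TGFB_EV replicate 3. The rows were chosen for TGFB_EV replicates 1 and 2; replicate 3 lies at 0.02 and -0.02, and the IL-10 libraries lie on both sides of 0.

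Glycolysis, the pathway that splits glucose to pyruvate, was the list with the most called rows. Of 17 tested rows meeting 12 of its 20 genes, 9 were called lower without replicate 3 and none higher, against 2.90% of all rows, and the list's median log2 fold change was -0.38 where that of all rows was 0.00. The 9 rows met 7 genes, so they are not 9 independent measurements. With all 6 libraries none was called, 3 had an unadjusted p under 0.05, 16 of the 17 values were below 0, and the median was -0.19. By library, on the scale common to all 12, the list's median stood at -0.30 and -0.48 in TGFB_EV replicates 1 and 2 and at 0.08 in replicate 3. The controls spread from -0.17 to 0.15, and the IL-10 libraries were at -0.19, 0.38 and -0.28, so IL-10 replicates 1 and 3 lay below every control too.

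Phosphofructokinase, which commits glucose to glycolysis, gave 5 of the 9 calls through its platelet, liver and muscle forms. The row labelled Pfkp, which met its own gene, read 58.6, 66.7 and 48.5 CPM in control_EV, 39.0 and 37.1 CPM in TGFB_EV replicates 1 and 2 and 60.6 CPM in replicate 3. Replicate 3 thus lay among the controls and the others below them (log2 fold change without replicate 3 -0.61, SE 0.12, edgeR adjusted p = 0.00463; with it -0.34, SE 0.16, adjusted p = 0.789). The D10Jhu81e row met Pfkl and read 71.5, 85.5 and 62.1 CPM in control_EV, 55.9 and 40.2 CPM in replicates 1 and 2 and 81.8 CPM in replicate 3. The Olfr286 row met Pfkm and fell by 0.32 on the log2 scale without replicate 3 (edgeR adjusted p = 0.0473). In that row replicate 3 read 144.2 CPM, above the highest control of 142.7 CPM.

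Rows of enzymes above and below this step were lower in the same libraries. The row labelled Hk2, meeting its own gene, a hexokinase that traps glucose in the cell, read 49.5, 57.5 and 48.8 CPM in control_EV, 42.1 and 35.7 CPM in replicates 1 and 2 and 50.1 CPM in replicate 3 (log2 fold change without replicate 3 -0.42, edgeR adjusted p = 0.0312). The Gnb3 row met Tpi1, triosephosphate isomerase, and read 4152.0, 4660.0 and 3806.8 CPM in control_EV, 3657.6 and 3132.6 CPM in replicates 1 and 2 and 4275.4 CPM in replicate 3. The Exosc1 row met Pgam1, phosphoglycerate mutase, and fell by 0.46 without replicate 3 (edgeR adjusted p = 0.00216). The Rapgef4 row met Pdk1, a kinase that inhibits pyruvate dehydrogenase, and fell by 0.64 without replicate 3 (edgeR adjusted p = 0.00434). The rows that met Aldoa, Slc2a1 and Slc16a3 were not called, at -0.18, -0.16 and 0.10. Only 1 of the 17 rows, that of Pgam1, had at least 65% GC.

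In the endoplasmic reticulum stress list 2 of 15 rows, which met chaperones, were called higher without replicate 3. The Cutal row met Hspa5, the chaperone BiP, and read 1049.9, 1046.1 and 1202.9 CPM in control_EV, 1592.9 and 1716.3 CPM in replicates 1 and 2 and 1106.4 CPM in replicate 3 (log2 fold change without replicate 3 0.59, SE 0.06, edgeR adjusted p = 4.83e-06; with it 0.42, adjusted p = 0.581). Replicate 3 was at control level. The Stab2 row met Hsp90b1, the chaperone GRP94, together with neighbouring genes, and rose by 0.27 without replicate 3 (edgeR adjusted p = 0.00433). The share called higher over all rows was 0.994%, and edgeR called none of the list lower. The rows that met Atf4, a transcription factor of the stress response, and its target Asns were at -0.01 and 0.02, and those of Xbp1 and Atf6 were not called either. The list's median was 0.05.

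Homeostatic microglia genes included 4 lower calls without replicate 3 among 9 tested rows, against 2.90% of all rows, and the list's median was -0.28. These rows met 6 of the 20 genes listed, and none of them met P2ry12 or Tmem119. The Camk2a row met Csf1r, the colony-stimulating factor receptor on which microglia depend, and also overlapped its neighbour Pdgfrb; it read 292.3, 348.2 and 278.1 CPM in control_EV, 224.5 and 203.7 CPM in TGFB_EV replicates 1 and 2 and 340.1 CPM in replicate 3 (log2 fold change without replicate 3 -0.52, SE 0.08, edgeR adjusted p = 0.000627; with it -0.26, adjusted p = 0.796). The Gm40457 row met Itgam, the integrin chain CD11b, and fell by 0.35 without replicate 3 (edgeR adjusted p = 0.00463). Replicate 3 read 245.8 CPM there, above the highest control of 239.1 CPM. A second row meeting Itgam, labelled Gm32816, was at -0.18 and not called (edgeR adjusted p = 0.211). Gas6, a ligand of the phagocytic TAM receptors, was met by the called rows Grk1 and Tmem255b, at -0.42 and -0.60. The Tmem255b row overlapped only 26 bp of Gas6, at 73.1% GC. With all 6 libraries none of the list was called and its median was -0.18. In the microglia and macrophage marker list, 4 of 18 rows were called lower, the Csf1r and Itgam rows and a pair meeting Fcgr3, an IgG receptor (-0.37 and -0.35). Summed over the marker rows, levels were 2233.6 to 2498.2 CPM in control_EV and 1887.3 to 2467.6 CPM in TGFB_EV. The recipients were 1 cell line. Bulk RNA does not separate a lower level in all cells from a lower level in some of them.

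**Figure D5:**
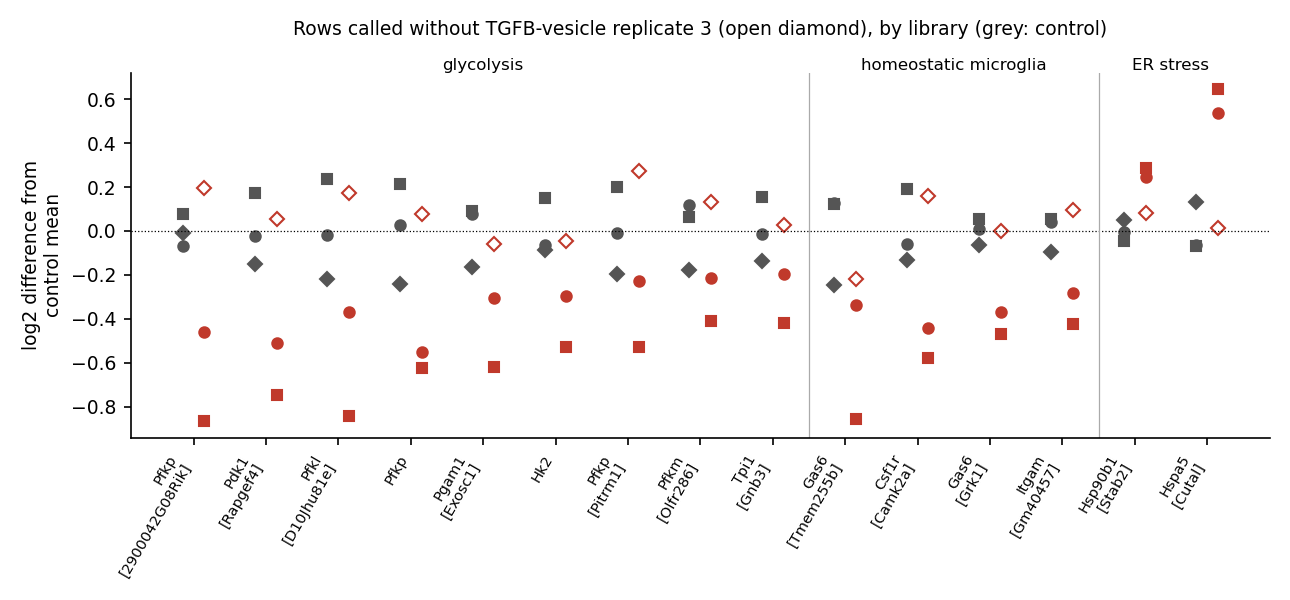
Log2 difference from the control mean (y axis, on log2 of CPM plus 0.5) in each library for the rows of 3 gene lists called without TGFB_EV replicate 3, named by gene met with the label in brackets (x axis). Grey symbols are control_EV and red symbols TGFB_EV (circle, square, diamond for replicates 1, 2, 3); the open diamonds of replicate 3 lie within the control values in 6 of the 9 glycolysis rows, and those of replicates 1 and 2 below them in all 9.

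The TGF-β pathway itself had no call with all 6 libraries. Of 30 ligands, receptors and SMADs, 12 were met by 15 tested rows; edgeR called none with 6 libraries (median -0.03, 1 lower at an unadjusted p under 0.05), and without replicate 3 there were 2 lower calls in the 15 rows, against 2.90% of all rows. The Gm45225 row met the ligand Tgfb1 and read 426, 483 and 443 CPM in control_EV, 395 and 374 CPM in TGFB_EV replicates 1 and 2 and 439 CPM in replicate 3 (log2 fold change without replicate 3 -0.23, edgeR adjusted p = 0.0352). Its overlap was 191 bp of exon 1 of Tgfb1, at 64.9% GC, and it also overlapped B9d2. The Iqgap1 row spanned Furin, the protease that matures the TGF-β precursor, and several neighbouring genes, and fell by 0.36 without replicate 3 (edgeR adjusted p = 0.00699). The receptor row labelled Tgfbr1, meeting its own gene, read 295, 278 and 286 CPM in control_EV and 293, 275 and 294 CPM in TGFB_EV (log2 fold change 0.00, SE 0.06). Its groups overlapped fully. The rows that met Smad3, Ski and Skil were not called, at -0.12 (SE 0.14), 0.02 and 0.08 (SE 0.07 and 0.08) and 0.21 (SE 0.15) with all 6 libraries. The row of Tlr4, the receptor of LPS, was at -0.15 (SE 0.13). No tested row met Tgfbr2, Smad2, Smad4 or Smad7.

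Of 26 TGF-β target genes, 8 were met by 9 tested rows, with a median log2 fold change of -0.14 with all libraries and -0.26 without replicate 3. The Mri1 row met Junb, a subunit of the AP-1 factor, and was the only call without replicate 3, at -0.26 (edgeR adjusted p = 0.0465). Rows meeting Cdkn1a, a cell cycle inhibitor, Klf10, a repressor that TGF-β induces in many cells, and Id1, an inhibitor of helix-loop-helix factors, were at -0.17, -0.24 and 0.00 and were not called. The values of Skil, a negative feedback gene of the pathway, were 10.7, 10.3 and 10.3 CPM in control_EV and 12.4, 13.1 and 10.6 CPM in TGFB_EV (edgeR adjusted p = 0.838 with all 6 libraries).

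Calls among inflammatory genes went both ways, but the list as a whole leaned lower. Its median log2 fold change was -0.11 with all 6 libraries and -0.19 without replicate 3. With all 6 libraries none was called, and 3 rows were lower and 0 higher at an unadjusted p under 0.05. Summed over the list, levels were 2864.6 to 3092.0 CPM in control_EV and 2559.3 to 2794.9 CPM in TGFB_EV. Every TGFB_EV sum thus lay below every control sum. Among 21 tested rows of inflammatory genes, the Gm34589 row, which met Acod1, the enzyme that makes itaconate, was called lower without replicate 3, and the Zbtb11 row, which met Nfkbiz, a nuclear IκB protein, was called higher, against 2.90% lower and 0.994% higher of all rows. The Gm34589 row read 97.8, 141 and 106 CPM in control_EV, 74.6 and 57.8 CPM in TGFB_EV replicates 1 and 2 and 109 CPM in replicate 3 (log2 fold change without replicate 3 -0.80, SE 0.13, edgeR adjusted p = 0.000806). The Zbtb11 row was at 0.49 (edgeR adjusted p = 0.0245), but a second row meeting Nfkbiz, labelled Pcnp, was at -0.45 and not called. The Ksr1 row, which met Nos2, the inducible nitric oxide synthase, was at -0.99 without replicate 3 (edgeR adjusted p = 0.0565). Of 6 tested rows of alternative activation genes, 2 were called lower without replicate 3, against 2.90% of all rows: those meeting Mrc1, the mannose receptor, at -0.23 and Mgl2, a galactose-binding lectin, at -0.49. In these 2 rows replicate 3 lay above every control, at 861.2 and 69.4 CPM. A second row meeting Mgl2, labelled Alox12, was at -0.54 and not called (edgeR adjusted p = 0.0724). By edgeR none of 18 interferon response rows and 12 antigen presentation rows was called, with or without replicate 3. With all 6 libraries 1 interferon row was higher at an unadjusted p under 0.05.

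Calcium signalling genes, the list of Ppp3r1, had 48 tested rows meeting 24 genes. With all 6 libraries the Ppp3r1 row was the 1 call and the median was -0.03. Without replicate 3 there were 3 lower and 2 higher calls, where 2.90% of all rows were lower and 0.994% higher. The Tada3 row met the first exon of Camk1, a calmodulin-dependent kinase, at 75.2% GC, and read 101.2, 86.1 and 90.7 CPM in control_EV, 40.1 and 33.5 CPM in TGFB_EV replicates 1 and 2 and 69.2 CPM in replicate 3. Replicate 3 thus stood between the groups. The row labelled Camk2g, holding exons 1 and 2 of its own gene, another such kinase, at 62.3% GC, read 610.9, 588.3 and 545.6 CPM in control_EV, 379.3 and 353.2 CPM in replicates 1 and 2 and 665.6 CPM in replicate 3 (log2 fold change without replicate 3 -0.67, SE 0.06, edgeR adjusted p = 1.5e-06). The other rows meeting Camk2g were not called, at -0.27, -0.16, 0.04, 0.05 and 0.49. A pair of rows meeting Atp2a2, the pump that loads calcium into the endoplasmic reticulum, labelled Pptc7 and Rad9b, rose by 0.27 and 0.24 without replicate 3. Another row meeting Atp2a2, labelled Vps29, was at -0.04 without replicate 3 and not called (edgeR adjusted p = 0.916). Replicate 3 read 397.9 CPM in the Pptc7 row, among the controls. In the Rad9b row it read 255.7 CPM, below the lowest control of 257.7 CPM.

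Calls in structural and housekeeping lists without replicate 3 are to be read against 2.90% lower and 0.994% higher among all rows. Among 25 cytoskeleton and adhesion rows, those of Vim, Lcp1, Itgav and the first exon of Zyx were lower and that of Flnc was higher. The row labelled Vim, meeting its own gene, the intermediate filament vimentin, read 21326.6, 25557.7 and 20166.5 CPM in control_EV, 18182.1 and 14709.0 CPM in TGFB_EV replicates 1 and 2 and 24277.2 CPM in replicate 3 (log2 fold change without replicate 3 -0.44, SE 0.08, edgeR adjusted p = 0.00254). The row of Flnc, an actin cross-linker, read 2513.5, 2580.2 and 2635.4 CPM in control_EV and 2987.7, 2908.0 and 2705.5 CPM in TGFB_EV, so that all 3 TGFB_EV values lay above the controls (without replicate 3 0.19, edgeR adjusted p = 0.0134). Of 20 ribosomal protein rows, 3 were lower. The largest of these was the Gm20681 row, which met the first exon of Rpl13 at 69.6% GC, at -0.76 without replicate 3 (edgeR adjusted p = 1.32e-06) and -0.52 with it (adjusted p = 0.439). The median of that list was -0.05.

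Among the remaining lists, the lysosome and phagocytosis list had 1 higher and 3 lower calls in 29 rows without replicate 3, and the same shares of all rows, 0.994% and 2.90%, stand beside this and the next counts. Vesicle formation and uptake had 1 each way in 17 rows, the higher being Cd63, a tetraspanin of vesicles, at 0.15, and the lower Flot1, at -0.33. The Cd63 row also overlapped Rdh5 and Bloc1s1, and the Flot1 row also overlapped Tubb5 and Mdc1. The NRF2 and oxidative stress list had 2 lower calls in 17 rows, Cybb, a subunit of the phagocyte oxidase, at -0.57 and Taldo1 at -0.96. Cell cycle genes had 1 each way in 16 rows, Mcm2, a subunit of the replicative helicase, at 0.44 and Aurkb, a mitotic kinase, at -0.50. The Lman1l row, at -1.17, and the Cox6c row, at -0.23, were the 2 lower calls in 27 rows of mitochondrial ATP production; the first overlapped 38 bp of a first exon of Cox5a at 84.2% GC. The nuclear pore list had only Rae1 in 26 rows, and translation factors only Eif4a2 in 20 rows, whose gene met changed to Kng1 under higher penalties for a change of displacement. None of 12 cholesterol rows was called by edgeR, and with all 6 libraries 0 had an unadjusted p under 0.05.

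The largest single rise without replicate 3 was in rows that met Avil, advillin, an actin-severing protein of the gelsolin family. The Slc26a10 row, over exons 5 to 17, read 9.27, 9.49 and 21.2 CPM in control_EV, 38.0 and 56.3 CPM in TGFB_EV replicates 1 and 2 and 10.6 CPM in replicate 3 (log2 fold change without replicate 3 1.81, edgeR adjusted p = 0.000149; with it 1.38, adjusted p = 0.706). The B4galnt1 row, over exons 1 to 5, read 5.06, 4.28 and 9.50 CPM, then 14.6 and 18.7 CPM, then 4.96 CPM (log2 fold change without replicate 3 1.39, edgeR adjusted p = 0.002). Control_EV replicate 3 was the highest control in both, and replicate 3 of TGFB_EV lay at control level in both. Another row meeting Avil, labelled Arhgef25, over exons 19 and 20, was at 0.20 and not called. In the IL-10 group the Slc26a10 row lay at 17.0, 1.47 and 32.5 CPM on the common scale, and in the LPS group at 5.68, 11 and 7.17 CPM.

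The other rises named by size met genes of varied function. They met Sh2d6 at 0.86, Hectd4 at 0.65, Tnrc6c, a scaffold of miRNA silencing, at 0.59, Prdm15 at 0.56, Wdr66 at 0.53, Tet1, which oxidises methylated cytosine, at 0.52, Sbf1 at 0.50 and the thiamine transporter Slc19a2 at 0.50, besides Hspa5 and Nfkbiz. The Sh2d6 overlap was 45 bp. Other rows meeting Hectd4 (0.11 and 0.08), Tnrc6c (-0.39 to 0.33), Prdm15 (0.40), Sbf1 (0.34) and Slc19a2 (0.27) were not called. Among other rows meeting Wdr66, that labelled Setd1b was called, at 0.28 (edgeR adjusted p = 0.0166). In 8 of the 12 largest rises replicate 3 lay within the range of the controls. Of the 12 largest falls, 8 rows held a first exon at 65% GC or more, those meeting Ppp3r1, Rnaset2a, Prpsap1, Stard7, Npepps, Camk1, Rnf10 and Pim3. Reads of Rnaset2a may be shared with its near-identical copy Rnaset2b. The other falls were in rows meeting Tpm2, a tropomyosin, at -1.69, Cish, a feedback inhibitor of cytokine receptors, at -1.31, Caprin1, an RNA-binding protein of stress granules, at -1.28, and BC107364 at -1.21. The Caprin1 row, labelled 4931422A03Rik, shared only a 100 bp step with that gene, and no shared transcript bases were found. Another row assigned to Caprin1, labelled Lmo2, had a mean of 0.943 CPM in control_EV and was at 0.80, not called. The Cish row, labelled Gm17141, read 39.7, 35.3 and 24.9 CPM in control_EV, 14.7 and 12 CPM in replicates 1 and 2 and 32.1 CPM in replicate 3.

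Over all 369 rows that met a protein-coding gene, had a mean of at least 5 CPM and were called without replicate 3 with no overlap of those 5 libraries, replicate 3 lay within the range of the controls in 197. For the 274 falls among them it lay below all controls in 60 and above all of them in 68. For the 95 rises it lay above all controls in 14 and below all of them in 30. In the first-exon rows meeting Ppp3r1, Rnaset2a and Camk1 replicate 3 stayed below the controls, while in that meeting Pim3 it lay within their range, at 57.1 CPM against a lowest control of 57.0 CPM. In the called rows meeting Csf1r, Hspa5 and Avil it lay within their range. In the 9 called glycolysis rows it lay within that range in 6 and above it in the others.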

How the data were processed

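The values the authors deposited are raw whole-number counts, 1 per Ensembl gene and library. DESeq2 is named in the submitters' processing notes. Aligner, counter, build and annotation: not given in the sources used here. Per the labels' protocols, cDNA came from SMART-Seq v4 and Nextera XT with 18 PCR cycles, which keep no strand, and paired reads of 150 nt.

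The 6 libraries were compared without covariates by the quasi-likelihood test of edgeR 4.0.16 (R 4.3.3), after TMM scaling and filterByExpr at its minimum of 10 counts. Calls needed a p under 0.05 after Benjamini-Hochberg adjustment. DESeq2 1.42.0 was an alternative. Row positions came from GENCODE M21 (GRCm38). Displacements were fitted in steps of 100 bp by a hidden Markov model over levels, without group labels, with penalties of 20 and 10 for a change; 90 of 98 stretches were supported by a score margin of 5. Any shared step of 100 bp counted as meeting a gene. Rows without a position held 1.809% of all counts. Scripts were tested on simulated data. Named were every called row, 16 rows of next smallest p, TGF-β pathway rows, up to 4 rows per list by level, and the 12 largest rises and falls without TGFB_EV replicate 3. List members called without that replicate, and rows of the same genes, were added after their values were seen. Members and lists were chosen with earlier results of these data known. Same-numbered replicates did not deviate together (correlations -0.0434, -0.15 and -0.249).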

Additional observations from a re-analysis of the deposited data

How the results depend on the processing

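With all 6 libraries the number of called rows was 4 with DESeq2 size factors and with a minimum count of 30, 9 with robust dispersion, 22 with DESeq2, 111 without a filter (15 higher), 0 in a fit of all 12 libraries (615 rows at an unadjusted p under 0.05), 1 for counts summed by gene met and 1 for rows under 65% GC, a subset that by its construction leaves out 2 of the 4 called rows for their GC content and 1 for lack of a position. With the replicate number as a block it was 3; the numbers are not known to pair the libraries. Leaving out 1 library at a time gave 0 to 419. Where the count was 0, 421 rows (without control_EV replicate 1) and 398 (without TGFB_EV replicate 1) had an unadjusted p under 0.05. With TGFB_EV replicate 3 left out, alternatives added after seeing the data gave 374 rows with DESeq2, 400 for sums by gene met and 350 for rows under 65% GC. The 4 called rows kept a negative fold change under every alternative that gave them a value. Their adjusted p ranged up to 0.298 (Gm17112), 0.209 (Pno1), 0.493 (Pck1) and 0.705 (ENSMUSG00000120226). Under the alternatives 13 values of list medians moved by more than the spread between replicates and 361 did not; the cause was not tested. With penalties of 25 and 12, 98.026% of rows of at least 5 CPM met the same gene. Depth limits rows near the level of 3 counts, 0.238 to 0.286 CPM.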

Other observations

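Values by GC content were also read in the libraries that the comparison does not use. In rows at 75% GC and over, the median log2 differences from the control mean were 0.12, -0.01 and -0.05 in the LPS group and -0.17, -0.03 and -0.05 in the IL-10 group. Over single rows, the Cutal row (Hspa5) lay at 650.5 CPM in IL-10 replicate 2 and 1307.5 CPM in IL-10 replicate 3, on the scale common to the 12 libraries, and the D10Jhu81e row (Pfkl) at 111.2 and 52.4 CPM. The Tada3 row (Camk1) lay at 40.6, 85.5 and 90.6 CPM in IL-10 replicates 1 to 3, and the Gm20681 row (Rpl13) at 2380.6, 3422.7 and 3517.5 CPM. IL-10 replicate 1 was the lowest of its group in these 2 rows, which hold first exons. In the Exosc1 row (Pgam1), which also holds a first exon, the values were 614.9, 901.4 and 597.5 CPM, with replicate 3 lowest.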
